A study of Mus musculus with 18 samples.

Results

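The effect of oncogenic RAS was measured in wild-type mouse embryonic fibroblasts (MEFs), the control cells of a series built around loss of the ribosomal S6 kinases S6K1 and S6K2. The comparison used 6 of the 18 RNA-seq libraries, all whose labels give the genotype as wild type (WT) for S6K1/S6K2 and the vector as either empty vector (EV, n = 3) or constitutive RAS (n = 3), and it ran over all 13881 expressed genes. MEFs are primary cells grown from minced embryos, here without head and viscera. The EV cells carried an empty retroviral vector and the RAS cells a retroviral vector for constitutively active HRAS. The study names pBABEpuro and MSCV-neo backbones, and whether both groups had the same backbone is not clear from it. Per the study's methods, the WT embryos came from WT mothers of earlier stages of the breeding and were not littermates of the double knockouts, and the transduced cells were selected with puromycin. The number in a label marks a WT line, so EV1 and RAS1 came from line 1, EV2 and RAS2 from line 2, and EV3 and RAS3 from line 3. No time between transduction and harvest was given for these libraries in the sources used here.

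RAS proteins are small GTPases that pass signals from growth factor receptors to the RAF, MEK and ERK kinases. ERK then acts on transcription factors of the ETS and AP-1 families, and it induces its own inhibitors, among them dual-specificity phosphatases and Sprouty proteins. A RAS protein locked in its active state does not make primary fibroblasts proliferate without limit. It drives them into senescence, a lasting arrest with raised cyclin-dependent kinase inhibitors and secretion of cytokines, growth factors and proteases.

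Total counts were 10679435 to 11253938 in the EV libraries and 8319445 to 11077111 in the RAS libraries. Levels are in CPM, counts scaled to library size. The limit for a gene without a count (3 counts) was 0.262 to 0.265 CPM in EV and 0.278 to 0.357 CPM in RAS. Line 1 stood apart from the others. Its EV and RAS libraries held Xist, the RNA of the inactive X chromosome, at 595 and 349 CPM and Ddx3y, on the Y chromosome, at 0.0873 and 0.108 CPM, while Ddx3y was at 90 to 110 CPM in lines 2 and 3. The summed level of 18 macrophage markers was 1830 CPM in EV1 and 1260 CPM in RAS1, against 202 to 333 CPM in the other 4 libraries. All 18 were tested and none was called with RAS in edgeR. Lyz2, Mpeg1 and Cd68 led that sum, and Lyz2 alone had 603 CPM in EV1 and 551 CPM in RAS1. Of 10 fibroblast markers, 5 fell and none rose, while 12.7% of all tested genes were called lower. Their sum was 44700 to 51500 CPM in EV and 26400 to 30000 CPM in RAS, led by Fn1, Col1a1 and Col1a2. The markers differed. Col1a1 had 11840 to 16280 CPM in EV and 2804 to 3745 CPM in RAS. Fn1, not called, had 3332, 6232 and 14010 CPM in EV and 9762, 12600 and 15690 CPM in RAS. Pdgfra, also not called, had 190, 215 and 103 CPM in EV and 292, 356.5 and 201 CPM in RAS. In bulk RNA, fewer cells of a type and less RNA per cell cannot be told apart.

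RAS changed the level of 3646 of the 13881 genes (26.3%), with 1880 higher (13.5%) and 1766 lower (12.7%) than in EV. A gene was called when its Benjamini-Hochberg adjusted p in edgeR's quasi-likelihood test was under 0.05, and the words "rose" and "fell" are kept for called genes. The fit also held the 3 double-knockout RAS libraries of the series. With only the 6 compared libraries in the fit, 2732 of 13548 genes were called. With the line as a block, 3525 of 13548 genes (26%) were called, 1893 higher (14%) and 1632 lower (12%). Of the called genes, 3567 had RAS and EV libraries that did not overlap, which held for 5904 of all tested genes (42.5%; 2897 higher, 20.9%, and 3007 lower, 21.7%). Most called genes thus had no overlap, so its mention for a called gene below is not separate support. The genes called higher took 11.4% of the counts of the EV libraries and 24.6% of those of the RAS libraries, and those called lower took 21.7% and 9% in turn. The log2 fold change exceeded 3 in 262 genes and was under -3 in 117, and its median over all tested genes was -0.02.

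**Figure D1:**
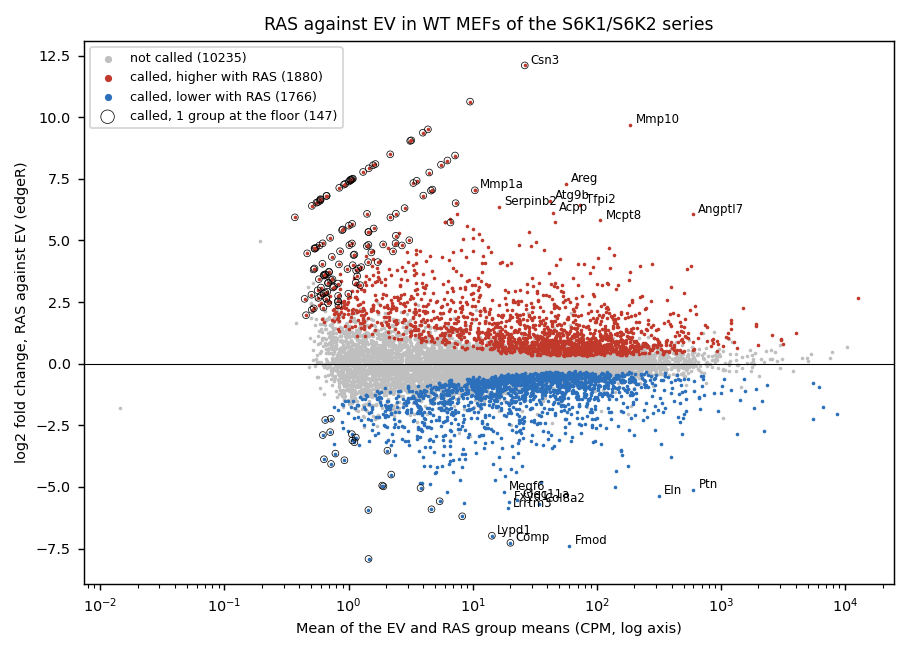
log2 fold change of RAS against EV (vertical axis) by mean level in CPM (horizontal log axis) for the 13881 tested genes. Red marks the 1880 genes called higher and blue the 1766 called lower. Circles mark called genes at or under 3 counts in every library of 1 group, whose plotted fold change depends on the prior count of the fit.

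Neighbouring metalloproteinase genes on chromosome 9 were among the genes with the largest rise. Mmp10 (stromelysin 2), Mmp3 (stromelysin 1), Mmp1a and Mmp1b (interstitial collagenases) are secreted enzymes that cut collagens, proteoglycans and other matrix proteins. Their starts lie between positions 7388026 and 7502342 of GRCm38, in the order Mmp1b, Mmp3, Mmp1a, Mmp10. The 120 bases before each start are shown 5′ to 3′ because these genes rose together and each stretch holds 1 match to the AP-1 motif TGANTCA, printed in capitals. They were read from RefSeq promoters of GRCm38.p6.

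Mmp10, chr9:7502222-7502341, plus strand:
Mmp10: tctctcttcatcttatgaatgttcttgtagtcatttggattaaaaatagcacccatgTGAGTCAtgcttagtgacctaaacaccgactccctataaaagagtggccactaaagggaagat
Mmp3, chr9:7445702-7445821, plus strand:
Mmp3: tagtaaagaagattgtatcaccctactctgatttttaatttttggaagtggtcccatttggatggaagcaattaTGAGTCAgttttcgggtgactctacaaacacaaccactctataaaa
Mmp1a, chr9:7464021-7464140, plus strand:
Mmp1a: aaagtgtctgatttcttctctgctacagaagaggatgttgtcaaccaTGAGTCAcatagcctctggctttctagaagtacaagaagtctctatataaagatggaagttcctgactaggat
Mmp1b, chr9:7388027-7388146, minus strand:
Mmp1b: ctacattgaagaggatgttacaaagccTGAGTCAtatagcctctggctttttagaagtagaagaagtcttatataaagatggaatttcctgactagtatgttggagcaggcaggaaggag

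All 4 motifs read TGAGTCA. The pattern TGANTCA is its own reverse complement, so a match counts on both strands. Their first bases lie at -63 in Mmp10, -46 in Mmp3, -73 in Mmp1a and -93 in Mmp1b, counted from the start. Among all 32851 promoters of the RefSeq table, which span 250 bases before to 50 after a start, 7.81% held TGANTCA. The share was 8.52% of 1878 promoters of genes called higher, 4.96% of 1754 promoters of genes called lower and 4.82% of 9591 promoters of tested genes that were not called. Among genes called higher with a log2 fold change over 3, it was 20.2%, with a match in 42 of 208 promoters of 161 genes. Among those called lower with a log2 fold change under -3, 6.96% of 115 promoters held it. A match describes the letters and does not show binding. The ETS motif CCGGAAGT, the cyclic AMP response motif TGACGTCA and the E2F motif TTTCCCGC were searched on both strands as well. The ETS motif was in 3.89% of all promoters, in 4.37% of those called higher and in 5.3% of those called lower, against 8.63% of those not called. The cyclic AMP response motif was in 1.79% of all promoters, 2.18% of those called higher and 2.51% of those called lower, against 3.21% of those not called. The E2F motif was in 1.07%, 1.06% and 2.28% in turn, against 2.01%. The interferon response motif was in 3.44% of all promoters, 2.24% of those called higher and 3.48% of those called lower, against 2.98% of those not called.

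Mmp10 was at 0.0873, 0.265 and 0.962 CPM in EV1 to EV3 and at 441, 422 and 253 CPM in RAS1 to RAS3. Mmp3 had 63.9, 69.1 and 72.6 CPM in EV and 1345, 1223 and 665 CPM in RAS. For both genes the lowest RAS library lay far above the highest EV library, and line 3 had the smallest rise. The log2 fold change was 9.69 (SE 0.61, adjusted p 3.57e-05) for Mmp10 and 3.98 (SE 0.30, adjusted p 8.85e-05) for Mmp3. Mmp1a had 5 counts in the EV libraries together and 597 in the RAS libraries, a ratio of 144 (95% exact interval 61.2 to 444 from counting alone). Mmp1b had 4 and 133 counts, a ratio of 40 (15.3 to 149). These close paralogs can share reads, so the split between them is uncertain. Of 19 tested metalloproteinase and inhibitor genes, 7 rose and 4 fell, with a median log2 fold change of 0.30. Mmp7, Mmp8 and Mmp20 had at most 2 counts in any library and were not tested. The other called genes of the list went both ways. Mmp14, a membrane-bound collagenase, fell by 0.92 (adjusted p 0.00154), from a mean of 1323 to 701 CPM, and the inhibitor gene Timp3 fell by 1.39 (adjusted p 0.00213), from 963 to 367 CPM. The count of risen genes was 4 without EV2 and 4 without RAS1.

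The plasminogen system activates pro-metalloproteinases outside the cell. Of 10 tested genes, 4 rose and 2 fell, and 1 fell without EV1, EV2, RAS2 or RAS3. Plau, the urokinase plasminogen activator, was at 61.7, 40.7 and 108 CPM in EV and 1318, 798 and 889 CPM in RAS (log2 fold change 3.84, SE 0.55, adjusted p 0.00133). Its receptor Plaur rose by 1.97 (SE 0.25, adjusted p 0.000849) from 11.6 ± 2.54 CPM. Serpinb2, an inhibitor of the activator, rose as well. It had 0.175, 0.0884 and 0.874 CPM in EV and 37.6, 24.7 and 34.1 CPM in RAS (log2 fold change 6.36, adjusted p 0.000205). The activator, its receptor and this inhibitor had RAS libraries above all EV libraries, as most genes called higher did. Tfpi2, a secreted inhibitor of serine proteases, had 0.961, 0.884 and 3.15 CPM in EV and 302, 77.4 and 55.4 CPM in RAS (log2 fold change 6.43, SE 0.94, adjusted p 0.00149).

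**Figure D2:**
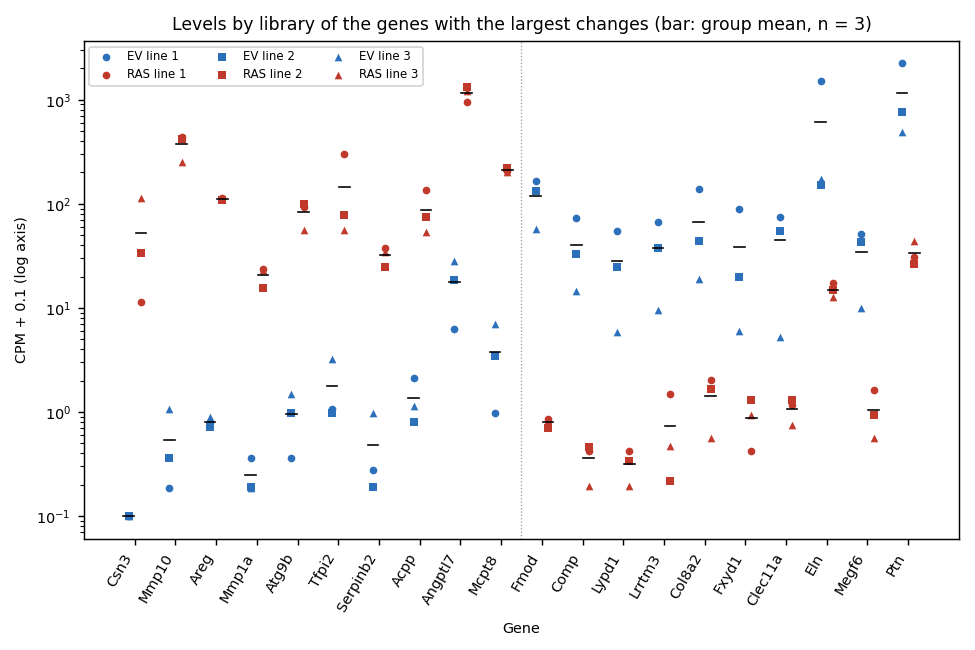
Level in each library (CPM + 0.1, log axis) of the 10 genes with the largest rise and the 10 with the largest fall. Blue is EV, red is RAS, shapes mark the lines and bars the group means. The lack of overlap in the 20 genes was thus set by their choice, and it held for 42.5% of all tested genes.

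The transcriptional output of ERK was raised in all lines alike. Of 26 tested genes of ERK output and feedback, 18 rose and none fell, with a median log2 fold change of 1.12, and line medians of 1.11, 1.03 and 1.11. Dusp6, the cytoplasmic phosphatase that removes the activating phosphates from ERK, was at 19.9, 21.2 and 26.1 CPM in EV and 174, 240 and 238 CPM in RAS (log2 fold change 3.28, SE 0.18, adjusted p 3.25e-05). The nuclear phosphatases Dusp5 and Dusp4 rose by 3.19 (SE 0.34, adjusted p 0.000365) and 3.17 (SE 0.35, adjusted p 0.000409). Spry4, a Sprouty inhibitor of the pathway upstream of ERK, rose from 12.4, 21.8 and 25.6 CPM to 99.2, 149.6 and 151 CPM (log2 fold change 2.74, SE 0.29). None of these groups overlapped, as in most called genes. Among the genes of RAS itself, Hras was at 59.6, 51.0 and 66.1 CPM in EV and 91.3, 102 and 104 CPM in RAS, a rise of 0.75 (SE 0.15, adjusted p 0.00568). Whether reads of the vector's HRAS were counted at mouse Hras is not given in the sources used here. Nras rose by 0.50 (adjusted p 0.0434), a call that was lost when any 1 library other than EV3 was left out (adjusted p up to 0.144). Rps6kb1 and Rps6kb2, which encode S6K1 and S6K2, had log2 fold changes of -0.12 (SE 0.10, adjusted p 0.411) and -0.07 (SE 0.15, adjusted p 0.762).

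Several genes for EGF family ligands, which activate the receptors upstream of RAS, rose. Of 11 tested ligand and receptor genes, 6 rose and none fell (median log2 fold change 1.15), while 13.5% of all tested genes were called higher. With the line as a block, 4 of 10 tested rose, and the same counts held with only the 6 compared libraries in the fit. The receptor gene Erbb3, among the 6, had 8 counts in EV and 39 in RAS. It could pass the filter on low counts only through RAS libraries. Areg, encoding amphiregulin, had little spread between lines, at 0.699, 0.619 and 0.787 CPM in EV and 115, 109.6 and 111 CPM in RAS (log2 fold change 7.29, SE 0.31, adjusted p 6.64e-06). Hbegf, the heparin-binding ligand, went from 75.7, 29.4 and 25 CPM to 236, 213 and 164 CPM (log2 fold change 2.24, SE 0.41, adjusted p 0.00417). Ereg, encoding epiregulin, rose by 1.71 (SE 0.27, adjusted p 0.00221). Ligands of other receptors were divided. Of 31 tested genes of the FGF, HGF, VEGF and PDGF families, 6 rose and 5 fell. That share was not far above the 26.3% of all tested genes. Pgf (placental growth factor) and Fgf2 rose by 3.05 (SE 0.30) and 2.07 (SE 0.16), and Fgf2 had 58.7, 71.4 and 71.3 CPM in EV and 302, 310 and 236 CPM in RAS. Fgfr2 and Angpt1, a ligand that stabilises vessels, fell by 2.47 (SE 0.39) and 2.40 (SE 0.27).

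AP-1 genes were also divided. Of 14 tested, 4 rose and 3 fell (median log2 fold change 0.32). Fosl1, which encodes the FOS family protein FRA-1, was at 6.20, 11.4 and 9.0 CPM in EV and 60.1, 47.6 and 41.0 CPM in RAS (log2 fold change 2.48, SE 0.23, adjusted p 0.00018). Maff rose by 1.34 (SE 0.26, adjusted p 0.00569). For Fosl1 each RAS library lay above each EV library. The count of fallen AP-1 genes was 1 without RAS2 or without RAS3, and that of risen ones was 2 without line 1.

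Genes of the fibroblast matrix fell widely. Collagens are the fibres of the matrix, small leucine-rich proteoglycans bind and space them, and elastic fibres give recoil. Of 34 tested collagen genes, 20 fell and 2 rose (median log2 fold change -1.11), with line medians of -0.93, -0.95 and -0.99. Col1a1 and Col1a2, the chains of type I collagen, were among the genes with most reads. Col1a1 went from 16281, 13348 and 11844 CPM to 3745, 2804 and 3429 CPM (log2 fold change -2.06, SE 0.25, adjusted p 0.00069), and Col1a2 fell by 1.76 (SE 0.30, adjusted p 0.00317). Col8a2, a network-forming chain, went from 137, 44.1 and 18.7 CPM to 1.95, 1.55 and 0.463 CPM (log2 fold change -5.68, SE 1.05, adjusted p 0.00442). Col14a1, a chain that links fibrils, fell by 3.41 (SE 0.65, adjusted p 0.00529). All these genes were lower in each RAS library than in any EV library, as most genes called lower were.

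Of 12 tested small leucine-rich proteoglycan genes, 7 fell and none rose (median log2 fold change -2.33). The median was -1.23 without EV1 and -1.60 without line 1. Fmod, encoding fibromodulin, was at 165, 134 and 57.3 CPM in EV and 0.756, 0.595 and 0.741 CPM in RAS, the largest fall of those named here that both groups measure above the floor (log2 fold change -7.38, SE 0.75, adjusted p 0.000258). Aspn (asporin) fell by 3.27 (SE 0.48), from 886, 611 and 301 CPM to 70.6, 56.3 and 59.7 CPM. Prelp fell by 3.79 (SE 0.67) and Bgn (biglycan), at 7310 to 8511 CPM in EV, by 0.93 (SE 0.19, adjusted p 0.00772). The EV levels of Fmod and Aspn were lowest in line 3, while the RAS levels of the lines lay close together. Without the filter on low counts, 11 genes of the list fell.

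Of 27 tested genes of elastic fibres and collagen cross-linking, 14 fell and none rose, and 3 rose without EV3. Eln, encoding elastin, was at 1516 CPM in EV1 and at 152 and 172 CPM in EV2 and EV3, and reached 17.1, 14.6 and 12.6 CPM in RAS (log2 fold change -5.38, SE 1.06, adjusted p 0.00602). Its EV mean rested mainly on line 1, yet all 3 lines ended within the same narrow range. Mfap4, Mfap2 and Fbln5, proteins of the microfibril and its assembly, fell by 3.77 (SE 0.80), 2.91 (SE 0.52) and 2.22 (SE 0.30). Of 25 tested matricellular glycoprotein genes, 11 fell and 2 rose. Smoc2, a calcium-binding modulator, fell with little spread, from 159, 159 and 187 CPM to 20.1, 18.7 and 16.3 CPM (log2 fold change -3.19, SE 0.16, adjusted p 1.85e-05). Comp, a cartilage and tendon glycoprotein, had 1370 counts in EV and 7 in RAS, a ratio of 163 (95% exact interval 78.8 to 406 from counting alone). Spp1, encoding osteopontin, moved the other way, from 804, 3660 and 5754 CPM to 19549, 26231 and 19479 CPM (log2 fold change 2.67, SE 0.57, adjusted p 0.00889). It was among the genes with most reads in RAS, and the EV lines differed more than the RAS lines did. The count of fallen matricellular genes was 3 without RAS2 and 7 without RAS3, and that of risen ones 6 without EV3.

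Genes for secreted signals of mesenchyme were divided. Of 35 tested genes of the TGF-β, activin and BMP families, 11 fell and 7 rose. Tgfb2, a TGF-β ligand, went from 267, 178 and 144 CPM to 21.3, 13.9 and 25.5 CPM (log2 fold change -3.28, SE 0.39, adjusted p 0.000532), and Gdf10, a BMP-like ligand, fell by 4.27 (SE 0.77, adjusted p 0.00401). Id4, a BMP-responsive inhibitor of helix-loop-helix factors, fell by 2.84 (SE 0.44). The count of fallen genes was 7 without RAS2. Of 20 tested Wnt antagonists and targets, 9 fell and 3 rose. Rspo2 and Rspo3 encode R-spondins, which amplify Wnt signals. Rspo2 went from 353, 324 and 135 CPM to 13.7, 18.3 and 7.88 CPM (log2 fold change -4.35, SE 0.75, adjusted p 0.00316), and Rspo3 fell by 2.82 (SE 0.38, adjusted p 0.00107). The fallen Wnt genes numbered 4 without RAS2 and 5 without RAS3, and the risen ones 1 without RAS1 or RAS2. Of 16 tested genes of the IGF system, 4 fell and 1 rose, a share near the 26.3% of all tested genes. Igfbp5, a binding protein of insulin-like growth factors, fell by 2.87 (SE 0.44, adjusted p 0.00179), from 852 ± 376 to 116 ± 62.2 CPM (SD, n = 3). With the line as a block, 4 IGF genes rose and 3 fell, 3 rose without EV3, and 2 fell without EV2 and 1 without RAS2. Ptn, encoding the heparin-binding growth factor pleiotrophin, fell from 2234, 764 and 490 CPM to 30.7, 26.4 and 43.6 CPM (log2 fold change -5.11, SE 0.64, adjusted p 0.000767).

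Transcription factors that give mesenchyme its position and identity fell more often than they rose, 16 against 5 of 40 tested. Osr2, a regulator of limb and palate mesenchyme, went from 37.7, 22.4 and 8.22 CPM to 2.81, 2.86 and 1.76 CPM (log2 fold change -3.20, SE 0.60, adjusted p 0.00468). Meox2, a homeobox gene of somite and limb, fell by 3.65 (SE 0.76, adjusted p 0.00763). The line medians of the list were -0.74, -0.72 and -0.52. The count of risen genes moved between 1 and 4 when a single library was left out, lowest without RAS2. Genes of smooth muscle contraction gave 3 risen and 2 fallen of 19 tested, a share near the 26.3% of all tested genes. The lines differed, with medians of 1.30, 0.05 and -0.23 in lines 1, 2 and 3. Tpm1 (tropomyosin) rose by 1.16 (SE 0.23, adjusted p 0.00651) and Smtn (smoothelin) fell by 0.94 (SE 0.14, adjusted p 0.00184). Without EV3, 8 of these genes rose.

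Most tested genes for cell adhesion to the matrix and for epithelial cells rose. Integrins are the paired receptors by which cells hold matrix proteins. Of 18 tested, 11 rose and none fell (median log2 fold change 1.12). Itga2, a collagen receptor chain, was at 3.06, 0.884 and 2.10 CPM in EV and 53.9, 83.1 and 51.3 CPM in RAS (log2 fold change 4.95, SE 0.35, adjusted p 5.34e-05). Itga6, a laminin receptor chain, went from 35.7, 19.1 and 24.3 CPM to 318, 409 and 303 CPM (log2 fold change 3.70, SE 0.31), and Itgb3, the chain of the osteopontin and vitronectin receptor, rose by 3.87 (SE 0.36, adjusted p 0.000184). All 3 had RAS libraries above all EV libraries, a lack of overlap found in most called genes. Itgb1, the chain shared by most integrins, rose by 1.23 (adjusted p 0.0212), a call lost without EV2 or RAS3 (adjusted p up to 0.0792).

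Of 15 tested epithelial genes, 11 rose and none fell. With only the 6 compared libraries in the fit, 11 were tested and 10 rose. The list median was 2.99, or 2.20 with the 4 genes at the floor in EV set to their bounds. Those 4 genes could pass the filter on low counts only through RAS libraries, so no fall could be called in them. Krt18, a keratin of simple epithelia, was at 0.349, 1.24 and 3.50 CPM in EV and 114, 82.8 and 75.5 CPM in RAS (log2 fold change 5.73, SE 0.56, adjusted p 0.000222). Cldn4, a tight junction claudin, went from 0, 0 and 0.437 CPM to 15.8, 26.0 and 20.6 CPM (log2 fold change 7.04, SE 0.80, adjusted p 0.00047). Other defining genes stayed low. Epcam had 1 count in EV and 32 in RAS. Cdh1 (E-cadherin), with 1, 1 and 0 counts in EV and 7, 11 and 4 counts in RAS, was too low to be tested. Of the 23 genes of the list, 8 were not tested, among them Grhl2 and Esrp1, regulators of the epithelial state, with 0 to 1 count in each library. Other keratin and claudin genes were also too low to be tested. Krt14 had 9, 0 and 2 counts in EV and none in RAS, Krt5 at most 1 count in any library, and Cldn7 3, 4 and 3 counts in EV and 1, 1 and 0 in RAS. With at least 10 counts required in every library, 5 genes of the list were tested and 4 were called higher. Whether a few cells or most cells held Krt18 and Cldn4 was not tested.

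Casein and placental prolactin genes appeared from no or few counts. Csn3, the milk protein κ-casein on chromosome 5, had no count in the EV libraries and 11.3, 33.5 and 113 CPM in RAS1 to RAS3. Its RAS mean, 52.6 CPM, was 200 times the EV floor of 3 counts per library (adjusted p 0.00485 in edgeR). It was lowest in line 1 and highest in line 3. Prl2c3 and Prl2c5, of the proliferin group of placental hormones, had 0 counts in EV and 63 and 38 counts in RAS. Their RAS means were 7.86 and 5.04 times the EV floor. Prl2c2 had 3 and 38 counts, a ratio of 15.2 (4.83 to 77.1). These paralogs are near-identical and their split is uncertain. The 4 tested genes were at the floor in EV and could pass the filter on low counts only through RAS libraries. The other 4 genes of that list had at most 1 count in any library and were not tested.

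**Figure D3:**
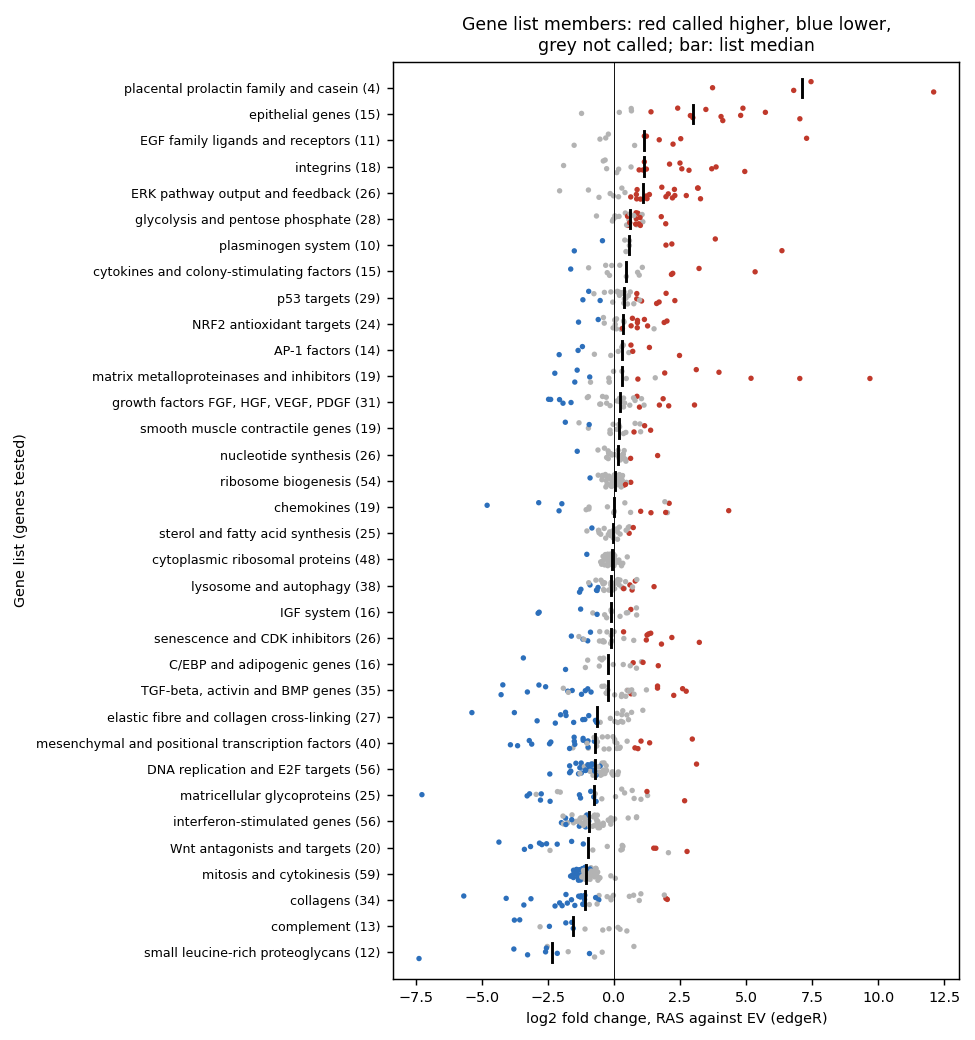
log2 fold change of every tested member of the 34 gene lists, ordered by list median (black bar), with the number tested in parentheses. Matrix lists lie to the left and epithelial, EGF family, integrin and ERK lists to the right, with fitted values for genes at the floor.

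Markers of senescence were mixed. Of 26 tested senescence genes and CDK inhibitors, 8 rose and 4 fell. Cdkn2a, which encodes p16 and ARF, was at 86.2, 113 and 154 CPM in EV and 283, 267 and 275 CPM in RAS (log2 fold change 1.23, SE 0.19, adjusted p 0.00184). The EV lines started at different levels and ended alike, so the rise was 1.71 in line 1, 1.24 in line 2 and 0.84 in line 3. Cdkn1a, which encodes p21, was at 308, 508 and 708 CPM in EV and 637, 592 and 747 CPM in RAS and was not called (log2 fold change 0.37, SE 0.25, adjusted p 0.298). Its groups overlapped, and its change was 1.05 in line 1 and 0.22 and 0.08 in the others. Hmga1 and Hmga2, chromatin proteins of senescence-associated heterochromatin, rose by 3.23 (SE 0.20, adjusted p 3.26e-05) and 1.80 (SE 0.27, adjusted p 0.00159). The fallen genes numbered 2 without EV2 or RAS2 and 1 without RAS3.

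Of 29 tested p53 targets, 7 rose and 3 fell, a share not far above the 26.3% of all tested genes. Mdm2, the ligase that limits p53, went from 110, 153 and 283 CPM to 560, 785 and 799 CPM (log2 fold change 1.97, SE 0.31, adjusted p 0.00212), and the stress kinase gene Plk3 rose by 2.31 (SE 0.23, adjusted p 0.000228). Perp, a membrane protein of apoptosis and desmosomes, rose by 1.62 (SE 0.22, adjusted p 0.0012). This count depended on single libraries. It was 15 without EV3, 4 without EV1 or RAS2 and 3 without EV2 or RAS3, and 11 with the line as a block. Both EV3 values given here for Mdm2 and Cdkn1a were the highest of their EV group.

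Proliferation genes were lower with RAS mainly in lines 2 and 3, each a single pair of libraries that was not tested alone. Of 59 tested genes of mitosis and cytokinesis, 20 fell and none rose (median log2 fold change -1.04), and the line medians were 0.14, -1.89 and -1.38 in lines 1, 2 and 3. Ccna2, encoding cyclin A2, was at 56.3, 95.9 and 48.5 CPM in EV and 36.5, 16.7 and 11.3 CPM in RAS (log2 fold change -1.64, SE 0.44, adjusted p 0.0222). RAS1 was the highest RAS library, though still below EV3. Nuf2, of the kinetochore, went from 24.5, 51.4 and 23.1 CPM to 20.6, 7.74 and 5.93 CPM (log2 fold change -1.53, adjusted p 0.0462), with -0.25, -2.70 and -1.93 in the 3 lines. Ccna2 and Nuf2 lost their calls without EV2, RAS2 or RAS3 (adjusted p up to 0.0861 and 0.169). The number of fallen genes was 0 without EV2, RAS2 or RAS3, 38 without EV1 and 44 without RAS1. Without both libraries of line 1, 54 of the 59 fell. With the line as a block 9 fell, with only the 6 libraries in the fit 2, with all 18 in the fit 38, without the filter 47, and in DESeq2 36.

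Of 56 tested genes of DNA replication and E2F targets, 24 fell and 1 rose (line medians -0.16, -1.15 and -0.79). Dscc1, of an alternative clamp loader, fell by 2.43 (SE 0.46, adjusted p 0.00515), from 3.84, 5.84 and 2.36 CPM to 0.864, 0.595 and 0.741 CPM. The gene that rose was E2f8, an atypical E2F repressor of cell cycle genes, at 7.86, 13.3 and 8.30 CPM in EV and 96.8, 90.9 and 69.5 CPM in RAS (log2 fold change 3.13, SE 0.21, adjusted p 4.61e-05). It rose by 3.59, 2.76 and 3.04 in the 3 lines. Without line 1, 36 genes of the list fell, and the count was 7 without EV2, 6 without RAS2 or RAS3 and 12 with only the 6 libraries in the fit. Line 1 also held the libraries with most macrophage marker counts, whose part in these values was not tested.

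**Figure D4:**
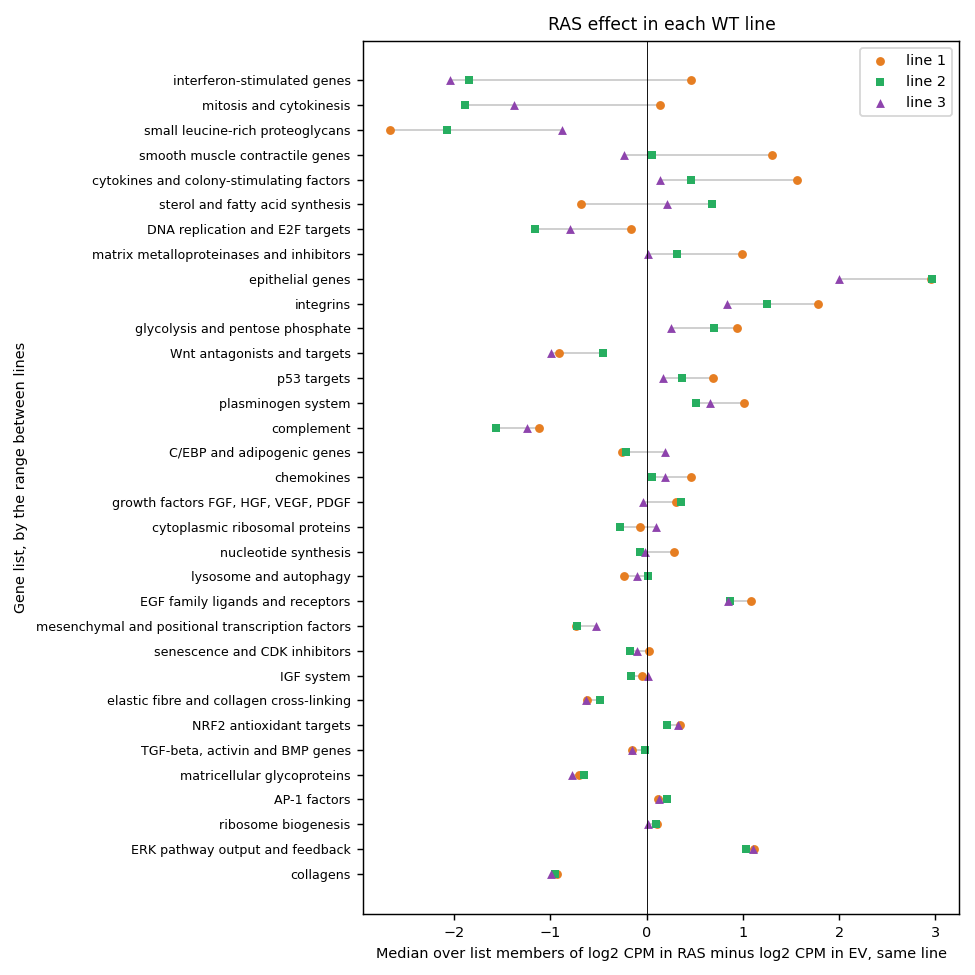
Median over each list of log2 CPM in RAS minus log2 CPM in EV of the same line, for lines 1, 2 and 3. The lists are ordered by the range between lines, which is largest for interferon-stimulated genes (0.46 in line 1, -1.84 and -2.04 in lines 2 and 3) and small for collagens and ERK output. The placental list is left out.

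Interferon-stimulated genes, which encode antiviral effectors and their regulators, showed the widest split between lines. Of 56 tested, 8 fell and none rose (median log2 fold change -0.95), with line medians of 0.46, -1.84 and -2.04. The share that fell was near the 12.7% of all tested genes that were called lower. Samd9l, an interferon-induced antiviral gene, was at 42.1, 82.8 and 66.4 CPM in EV and 36.4, 7.98 and 9.36 CPM in RAS (log2 fold change -1.83, SE 0.53, adjusted p 0.0297). Irgm2, an interferon-induced GTPase, went from 25.2, 57.6 and 53.2 CPM to 23.7, 7.62 and 7.32 CPM (log2 fold change -1.82, SE 0.48, adjusted p 0.0212, and 0.0545 with the line as a block). In both, the change was small in line 1 (-0.21 and -0.09) and large in line 2 (-3.34 and -2.89) and line 3 (-2.80 and -2.83). Both calls were lost without EV2, RAS2 or RAS3, with adjusted p up to 0.0996 for Samd9l and 0.0809 for Irgm2. The number of fallen interferon genes was 1 without EV2, RAS2 or RAS3, 46 without RAS1, and 50 without both libraries of line 1, where the median was -1.97. It was 23 without the filter on low counts and 5 with only the 6 libraries in the fit. Macrophages use many of these genes, and the 18 macrophage markers summed to 1830 CPM in EV1 and 1260 CPM in RAS1. Their part in the line 1 values was not tested.

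Of 13 tested complement genes, 6 fell and none rose, with line medians of -1.11, -1.56 and -1.24. C4b, a central component of the classical pathway, went from 12.8, 5.75 and 3.50 CPM to 0.864, 0.357 and 0.371 CPM (log2 fold change -3.77, SE 0.69, adjusted p 0.00419). C1ra, a protease of the first component, fell by 2.44 (SE 0.50, adjusted p 0.00719). Both were lower in each RAS library than in any EV library, as most genes called lower were.

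Cytokines and chemokines rose or fell gene by gene. Of 15 tested cytokine and colony-stimulating factor genes, 4 rose and 1 fell (median log2 fold change 0.47). That share was not far above the 26.3% of all tested genes. The median was -0.03 without RAS3, 0.06 without EV2 and 1.03 without EV3. Tslp, an alarmin that acts on dendritic cells, was at 1.92, 1.5 and 0.612 CPM in EV and 30.0, 90.5 and 44.9 CPM in RAS (log2 fold change 5.34, SE 0.55, adjusted p 0.00028). Lif and Il11, of the interleukin-6 family, rose by 3.22 (SE 0.31, adjusted p 0.000205) and 2.23 (SE 0.25, adjusted p 0.000392). These 3 were higher with RAS in every line. Il33 rose by 2.18 (adjusted p 0.0179), and 0.0632 with the line as a block, with 3.76, 2.25 and 0.14 in the 3 lines, and its call was lost without EV2, RAS1 or RAS2 (adjusted p up to 0.0602). Il6 varied between the libraries of each group. It had 0.524, 0.354 and 4.11 CPM in EV and 2.59, 0.476 and 2.69 CPM in RAS (log2 fold change 0.22, SE 0.85, adjusted p 0.872). When 1 library was left out its log2 fold change lay between -0.26, without EV2, and 2.12, without EV3 (adjusted p 0.0547). Il1a had 0, 0 and 1 count in EV and 8, 1 and 2 counts in RAS, and Il1b 0 counts in EV and 4, 0 and 3 in RAS, and neither was tested. Summed over the libraries, Il1a and Il1b both had more counts in RAS than in EV, but too few for a test. By RT-qPCR, the study reported induction of both genes by RAS in WT MEFs.

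Of 19 tested chemokine genes, 5 rose and 4 fell (median 0.01). Cxcl12, which retains stem cells and leukocytes in tissue, went from 2983, 2093 and 2031 CPM to 354, 289 and 345 CPM (log2 fold change -2.85, SE 0.40, adjusted p 0.00121). Cxcl15 fell from 50.8, 113 and 43.2 CPM to 3.24, 2.14 and 2.04 CPM (log2 fold change -4.80, SE 0.72, adjusted p 0.00167). Ccl6, also a product of macrophages, rose from 1.57, 0.354 and 0.524 CPM to 29.7, 9.41 and 11.4 CPM (log2 fold change 4.34, SE 0.91, adjusted p 0.00784). It was highest in RAS1, but its change by line was even, at 4.08, 4.14 and 4.02. The risen chemokines numbered 2 without EV2 and 3 without RAS1, RAS2 or line 1, and the fallen ones 2 without EV2, RAS2 or RAS3.

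Metabolic genes changed by smaller amounts. Of 28 tested genes of glycolysis and the pentose phosphate pathway, 13 rose and none fell (median log2 fold change 0.60, line medians 0.94, 0.70 and 0.26). Slc2a1, the glucose transporter GLUT1, went from 95.9, 65.1 and 89.8 CPM to 353, 314 and 309 CPM (log2 fold change 1.96, SE 0.17, adjusted p 0.000123). Slc16a1, which carries lactate, rose by 1.79 (SE 0.17), and the glycolytic enzymes Gpi1 and Aldoa rose by 1.00 (SE 0.13) and 0.99 (SE 0.15). All 4 genes rose without overlap between groups, as most called genes did. Of 24 tested targets of NRF2, the factor of the oxidative stress response, 10 rose and 2 fell. Hmox1 (heme oxygenase) was at 163, 123 and 179 CPM in EV and 564, 648 and 656 CPM in RAS (log2 fold change 2.01, SE 0.16, adjusted p 0.000112), and Srxn1 (sulfiredoxin) rose by 1.90 (SE 0.21, adjusted p 0.000373).

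Of 38 tested lysosome and autophagy genes, 5 rose and 6 fell, a share near that of all genes. Ctsl, encoding cathepsin L, rose from 937, 828 and 1224 CPM to 2855, 2878 and 2826 CPM (log2 fold change 1.52, SE 0.20, adjusted p 0.000889), and Ctso fell by 0.91 (SE 0.19, adjusted p 0.00887). These counts fell to 1 risen without EV2 and to 2 risen and 2 fallen without RAS2. Of 26 tested nucleotide synthesis genes 2 rose and 1 fell, a share under the 26.3% of all tested genes, and 5 rose without EV3. Of 25 genes of sterol and fatty acid synthesis, 2 rose and 1 fell, also under the share of all genes. The line medians were -0.68, 0.68 and 0.21 in these sterol and fatty acid genes. Without EV1, 8 of them rose, the same number as without line 1. Of 16 C/EBP and adipogenic genes, 3 rose and 2 fell, a share near that of all genes. In this list 5 fell without EV3 and 4 with the line as a block. Plin2, which coats lipid droplets, rose by 1.68 (SE 0.28, adjusted p 0.00269). Few genes of the translation machinery were called. Of 54 tested ribosome biogenesis genes, 3 rose and 1 fell, and none rose without EV2, RAS1 or RAS3. Ubtf, a factor of RNA polymerase I, fell by 0.90 (SE 0.14, adjusted p 0.00205). Of 48 cytoplasmic ribosomal protein genes, Rpl15 alone was called, at -1.03 (SE 0.19, adjusted p 0.00449), and the list median was -0.08. Both shares lay under the 26.3% of all tested genes.

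The same comparison was made in the WT cells of the S6K1 series, which were separate lines and served to show where these WT cells differ. There, 1859 of 14036 tested genes (13.2%) were called. Of 3550 genes called here and tested in both series, 3298 (92.9%) had the same sign in the other, and 1363 were called in both. The difference of the RAS effect was tested in 14483 genes over all 18 libraries. None passed in edgeR (0%), with 1819 genes at an unadjusted p under 0.05, and DESeq2 called 142. With the line as a block, 4 of 14235 genes (0.0281%) passed, 2 with a higher effect here (0.014%) and 2 with a lower one (0.014%). The series were separate experiments, so a batch and the series cannot be told apart here. Mmp10 had a log2 fold change of 9.69 here and 7.04 in the S6K1 series, Areg 7.29 and 5.72, and Fmod -7.38 and -6.93. The list medians of ERK output (1.12 and 1.01) and collagens (-1.11 and -1.03) were close. Those of interferon-stimulated genes (-0.95 and 0.94) and integrins (1.12 and 0.22) were not, and no test of a list was made. For the interferon genes, the line medians in the S6K1 series were 1.31, 1.09 and -0.39.

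**Figure D5:**
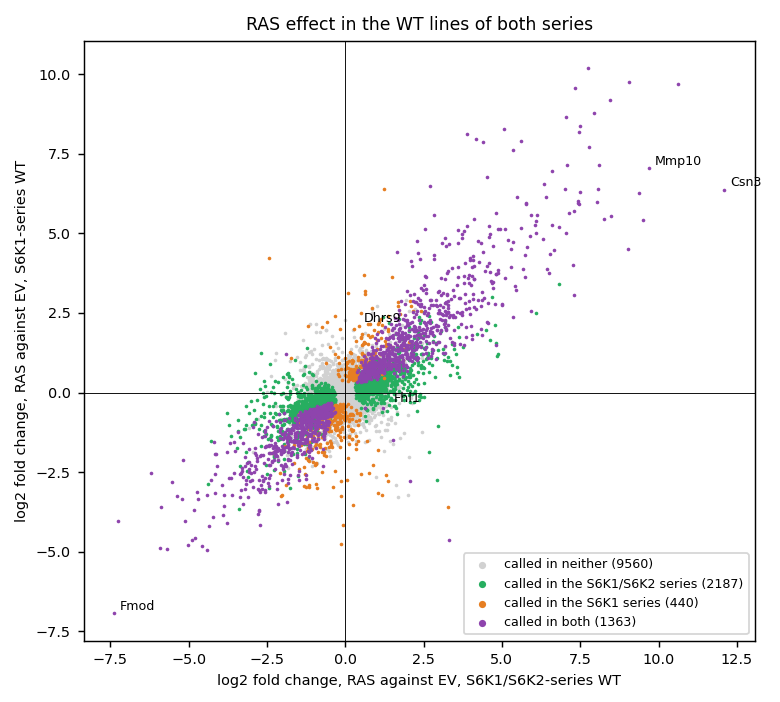
log2 fold change of RAS against EV in the WT lines of the S6K1/S6K2 series (horizontal axis) and of the S6K1 series (vertical axis) for 13550 genes tested in both. Most genes called in both (1363, purple) lie along the diagonal. No gene passed edgeR's test of the difference in the fit without a line block.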

How the data were processed

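Poly(A) RNA of 6 MEF libraries (3 WT lines, each with EV and with RAS) was compared. The authors deposited raw counts per gene, with 1 column per library. The study's methods name single-end reads of a stranded kit, mapped to mm9 with TopHat and counted with HTSeq, while the submitters' processing notes name mm10, STAR 2.7.1a and DESeq2 1.28.1. The build behind the counts is thus not settled, nor is the strand setting, so overlapping genes and antisense pairs may share reads. Positions given are those of RefSeq on GRCm38 (mm10) and describe the genes only. Of 55401 identifiers, 32589 had a symbol and held 99.1% of all counts, and 25336 had no count.

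Counts were fitted in R 4.3.3 with edgeR 4.0.16 over the 9 libraries of the S6K1/S6K2 series with group as the only term, after filterByExpr (minimum count 10) and TMM scaling. Besides the compared WT libraries, these included the 3 S6K1/S6K2 double-knockout RAS libraries. The knockouts entered the filter, the scaling and the estimate of the spread, but not the contrast. Genes were tested by the two-sided quasi-likelihood F test, and p-values were adjusted over all tested genes (Benjamini-Hochberg, threshold 0.05). Levels are CPM, given per library or as mean ± SD. Changes by line are differences of log2 CPM (prior count 2). The floor was 3 counts per library. At or under it were 123 called genes in every EV library and 24 in every WT RAS library. The 123 could pass the filter only through RAS libraries, so no fall could be called in them. Intervals and floors cover counting error only, since the reads carry no molecular identifiers. Per the study, its MEF lines came from embryos of different mothers, and p-values measure the spread between lines, the double-knockout lines included.

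Line numbers were taken as pairs, since the labels attach them to WT lines. Deviations from the group means correlated at 0.366, 0.293 and 0.308 for equal numbers and at -0.296 to 0.102 for others. Replicates differed beyond sampling noise. The fit with the line as a block, 6 or 18 libraries in the fit, DESeq2 1.42.0 (the study's tool), other scalings and filters, and leaving out libraries were alternatives, the omission of line 1 being chosen after seeing the data. The 34 gene lists and 8 marker lists and the rule for named genes were chosen with earlier results of these data known. Named were the 10 genes with the largest rise and fall among called genes without overlap and with a mean of at least 100 counts, up to 4 called genes per list by size of change, called genes with most reads, and fixed genes. A few genes that the rule names are not reported here. Mmp14, Timp3, Cdh1, Grhl2 and Esrp1 were added after their values were seen. Promoters came from RefSeq (GRCm38.p6), with 1390 genes called higher and 1343 called lower matched by symbol.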

Additional observations from a re-analysis of the deposited data

Results flagged for a closer look

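With the line as a block, 4 genes had a RAS effect that differed between the WT cells of the series in edgeR (n = 3 lines each), and none did without the block. Fhl1, a LIM protein of muscle and fibroblasts on the X chromosome, rose in all 3 lines here, at 131, 137 and 236 CPM in EV and 338, 446 and 544 CPM in RAS, and was lower with RAS in each line of the S6K1 series, at 372, 303 and 244 CPM in EV and 257, 209 and 232 CPM in RAS. Its log2 effects differed by 1.78, and by 1.81 with the block. Dhrs9, a retinol dehydrogenase, was at 27.4, 18.9 and 12.4 CPM in EV and 40.7, 22.7 and 16.6 CPM in RAS here, where it was not called and the groups overlapped. In the S6K1 series it was at 23.6, 19.5 and 14.8 CPM in EV and 91.5, 101 and 56.9 CPM in RAS (difference -1.66).

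Lypd1 fell here from 52.3, 24 and 5.67 CPM to at most 0.316 CPM, while all 6 WT libraries of the S6K1 series were at 0.154 to 0.824 CPM, near the floor, and it was not tested there. Its fitted difference (-6.5) depends on the prior count and is no measured size. The gene ENSMUSG00000101859, without a symbol here, had 0.252 to 0.341 CPM in EV and 0.947 to 4.07 CPM in RAS, and moved the other way in the S6K1 series, from 2.38 to 14.8 CPM down to 0.0824 to 0.563 CPM (difference 7.87). These CPM were scaled over all 18 libraries.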

How the results depend on the processing

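The count of called genes (3646) was 3525 with the replicate block, of which 3052 were also called without it, and lay within 1.5 times under the other scalings, filters and fits. It moved with single libraries, from 2050 to 4199 when 1 was left out, with 2050 without RAS replicate 2, 2195 without RAS replicate 3 and 2316 without EV replicate 2. Upper-quartile scaling put 47.2% of calls higher, against 51.6%. The count for the difference between series (0) was 4 with the replicate block, 142 in DESeq2 and 0 to 290 when 1 library was left out (290 without EV replicate 3 of the S6K1/S6K2 series, 18 without EV replicate 3 of the S6K1 series), and the cause was not tested. Of the values of named genes under alternatives, 2119 kept their call and direction, 170 lost significance, 1 gained it and none reversed. The block ended the calls of Il33 and Irgm2 among those named in the text. With 3 lines and 8319445 to 11253938 counts, genes under about 1 CPM, Il1a and Il1b among them, were not resolved.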

Other observations

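Few markers of other tissues were tested, and their counts are too small to set against the 26.3% of all tested genes that were called. Of 5 tested neural markers, 2 rose, and Nes, the intermediate filament nestin of progenitor cells, led their sum, at 14.1, 20.2 and 59.7 CPM in EV and 292, 315 and 385 CPM in RAS. Sox10 and Gfap stayed under 0.4 CPM in all 6 libraries. Of 3 tested skeletal muscle markers, 1 rose. Acta1, skeletal α-actin, had 2.18, 6.19 and 23.1 CPM in EV and 209, 65.5 and 77.8 CPM in RAS, while Myod1, Myog, Myf5 and Pax7, the regulators of the muscle lineage, had no count in any library. Of 5 tested endothelial markers 2 rose and 1 fell, and their sum was 18.1 to 26.9 CPM in EV and 30.3 to 34.3 CPM in RAS. Of 4 tested cartilage markers 1 fell, and their sum was 30.4 to 46.6 CPM in EV and 23.8 to 26.7 CPM in RAS. The erythroid sum was at most 0.556 CPM.

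Among the genes with the largest changes that no list held, Angptl7, a secreted angiopoietin-like protein, went from 6.20, 18.4 and 28.1 CPM to 957, 1321 and 1220 CPM, and the mast cell protease gene Mcpt8 from 0.873, 3.36 and 6.91 CPM to 206, 222 and 201 CPM. The phosphatase gene Acpp rose by 6.11 (SE 0.55, adjusted p 0.000162) and the autophagy gene Atg9b by 6.59 (SE 0.40, adjusted p 3.26e-05). Lrrtm3 had a log2 fold change of -5.87, Fxyd1 of -5.60, Clec11a of -5.53 and Megf6 of -5.21.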
